A study of Caenorhabditis elegans with 6 samples.

Results

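The genes described here are the infection response genes irg-1 to irg-7 of Caenorhabditis elegans together with zip-2, which encodes a bZIP transcription factor of the same response. They were taken by gene symbol from a table of RNA-seq read counts per gene. All 8 were found among 46936 genes, and all 8 were among the 14534 genes that passed the filter on low counts. RNA came from 3 libraries of animals kept on plates with MProPow2, the preparation that the labels call Protein powder 2, and from 3 libraries of control animals on plates with water. Both groups were wild-type N2 whole animals fed Escherichia coli OP50 at 20 °C and plated on their condition as L1 larvae. They were moved at the L4 stage to plates with 5-fluorouracil and collected as day 2 adults. The methods for RNA sequencing do not say whether these later plates held the powder. No pathogen was part of the design, and messenger RNA was selected by its poly-A tail.

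The nematode intestine meets ingested microbes directly, and infection changes the transcription of a set of secreted and intracellular defence genes there. The irg genes are named for their induction by pathogens such as Pseudomonas aeruginosa. ZIP-2 responds to blocked translation, a common consequence of bacterial toxins, and drives irg-1 and other targets together with its partner CEBP-2. A parallel route, the p38 kinase PMK-1 cascade, controls another group of effectors that includes irg-4 and irg-5. In whole animals a lower RNA level in each cell cannot be told apart from fewer cells that make the RNA.

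Total counts per library ran from 29347851 to 32145772 in MProPow2-treated animals and from 28859395 to 37501098 in control animals. Levels of a gene are given as CPM, counts scaled to a common library size after TMM normalization, and changes as the log2 fold change of MProPow2 over control from the quasi-likelihood test of edgeR, with p adjusted by Benjamini-Hochberg over the 14534 genes tested. A gene was called at an adjusted p under 0.05. The methods of the study call the 3 libraries of a group biological replicates. The p-values set the difference between groups against the spread between these libraries, which edgeR moderates with information from all genes tested.

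MProPow2-treated animals had less irg-7 RNA and more irg-4 RNA than control animals, and these were the genes called of the 8. irg-7 was at 43.4% of its control level and irg-4 was 2.25-fold its control level. The 1 member called in each direction compares with 1.53% of all genes tested called higher (223 genes) and 1.47% called lower (214 genes). With upper-quartile scaling the split was 229 higher and 131 lower. The other members, zip-2 and its target irg-1 included, were not called. Of the 8 log2 fold changes, 6 were above 0 and 2 below, and their median was 0.20. Over all genes tested, 6846 were above 0 and 7688 below, with a median of -0.01.

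**Figure D1:**
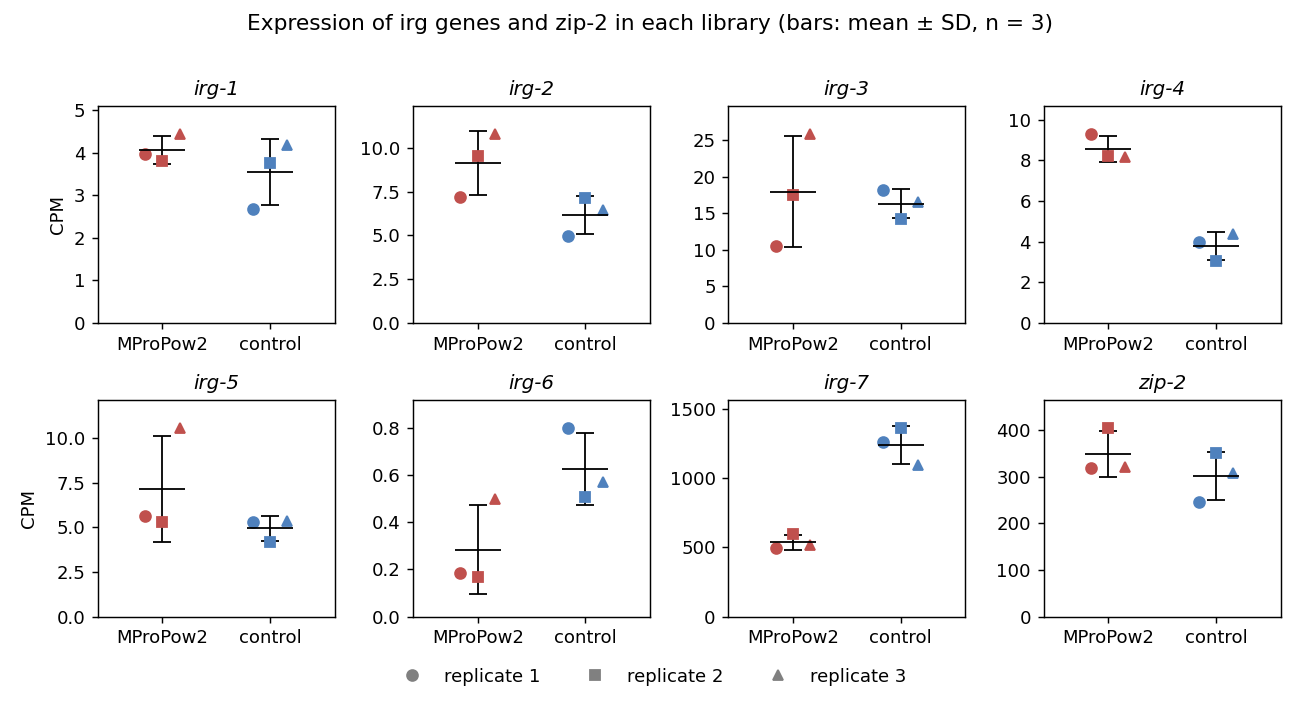
CPM of each of the 8 genes (vertical axes, each from 0) in the 3 MProPow2 and the 3 control libraries, with 1 marker shape per replicate number and black bars for the mean ± SD. The groups are apart for irg-2, irg-4, irg-6 and irg-7, narrowly so for irg-2 and irg-6, and overlap for irg-1, irg-3, irg-5 and zip-2.

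Per gene length, the transcription factor gene had the highest level of the 8. zip-2 had 319, 404 and 320 CPM in the MProPow2 libraries, against 246, 351 and 307 CPM in the control libraries. The groups overlapped, with control replicate 1 the lowest of the 6. The mean was 348 ± 48.9 CPM in MProPow2-treated animals and 301 ± 52.3 CPM in control animals (SD, n = 3 each). The log2 fold change was 0.21 (SE 0.15, 95% interval -0.12 to 0.53, adjusted p = 0.537), and the gene rested on 7083 to 13147 counts per library. Leaving out MProPow2 replicate 2 gave 0.08, as did leaving out control replicate 1, and leaving out control replicate 2 gave 0.33, with no call. ZIP-2 is controlled to a large part through translation of its mRNA, which involves upstream open reading frames, and RNA counts do not measure that step. The gene overlaps dos-3 in a reference annotation, but dos-3 had only 1 to 4 counts per library.

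irg-1, whose reporter is the standard readout of ZIP-2 activity, lay far below zip-2 per gene length in both groups and was not called. It had 3.97, 3.80 and 4.44 CPM in the MProPow2 libraries, against 2.68, 3.76 and 4.19 CPM in the control libraries. Replicate 1 was again the lowest control library, and the other control libraries lay within or close to the MProPow2 range. This gave a log2 fold change of 0.20 (SE 0.19, 95% interval -0.24 to 0.63, adjusted p = 0.691). Leaving out control replicate 1 gave 0.03, leaving out MProPow2 replicate 3 gave 0.13, and leaving out control replicate 3 gave 0.34, with no call.

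irg-2, also known as a target of ZIP-2, leaned higher without being called. It had 7.17, 9.53 and 10.8 CPM in the MProPow2 libraries, against 4.98, 7.12 and 6.44 CPM in the control libraries. Every MProPow2 library was above every control library, although the lowest MProPow2 value and the highest control value were nearly equal. The mean of 9.16 ± 1.83 CPM in MProPow2-treated animals was 148% of the 6.18 ± 1.10 CPM in control animals (SD, n = 3 each). Its log2 fold change was 0.56 (SE 0.19, 95% interval 0.13 to 0.99), with an adjusted p of 0.172. Without the filter on low counts the adjusted p was 0.0473, past the threshold.

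irg-3, another gene induced by P. aeruginosa, varied widely among the MProPow2 libraries. It had 10.6, 17.5 and 25.8 CPM in the MProPow2 libraries, against 18.2, 14.2 and 16.6 CPM in the control libraries. The lowest and the highest of all 6 values both came from MProPow2 libraries, and the coefficient of variation was 42.5% there, against 12.3% in the control libraries. The counts were 341, 526 and 775 in the MProPow2 libraries and 522, 532 and 524 in the control libraries. With all 6 libraries the log2 fold change was 0.14 (SE 0.26, adjusted p = 0.854), and without MProPow2 replicate 3 it was -0.22.

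irg-4 rose in MProPow2-treated animals. It encodes a small secreted protein with a CUB-like domain, is a standard readout of PMK-1 activity, and can also be driven by the nuclear receptor NHR-86. It had 9.28, 8.19 and 8.14 CPM in the MProPow2 libraries, against 3.97, 3.04 and 4.38 CPM in the control libraries. The lowest MProPow2 value was well above the highest control value, and the replicates of each group lay close together. The mean was 8.54 ± 0.64 CPM in MProPow2-treated animals and 3.80 ± 0.69 CPM in control animals (SD, n = 3 each), from 244 to 299 counts per MProPow2 library and 114 to 138 per control library. The log2 fold change was 1.17 (SE 0.17, 95% interval 0.79 to 1.56, adjusted p = 0.00965), which ranked 75 of all genes tested by p. The gene was past the threshold in 12 of 15 alternative settings, and missed it without MProPow2 replicate 1 (adjusted p = 0.0518), without control replicate 2 (0.0541) and in limma on log2(FPKM + 1) with no filter (0.0875).

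irg-5 encodes a related CUB-like protein that also depends on PMK-1, and its higher mean came from 1 library. It had 5.62, 5.30 and 10.6 CPM in the MProPow2 libraries, against 5.29, 4.16 and 5.36 CPM in the control libraries. MProPow2 replicate 3 stood above all others, while MProPow2 replicates 1 and 2 were close to the upper control values. irg-5 had a log2 fold change of 0.54 (SE 0.26, 95% interval -0.05 to 1.12, adjusted p = 0.341), and 0.15 without MProPow2 replicate 3.

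irg-6 was near the limit of detection. It had 0.186, 0.167 and 0.50 CPM in the MProPow2 libraries, against 0.800, 0.507 and 0.571 CPM in the control libraries, from 6, 5 and 15 counts in the MProPow2 libraries and 23, 19 and 18 counts in the control libraries. All MProPow2 values were below all control values, but MProPow2 replicate 3 and control replicate 2 were nearly equal. Its log2 fold change was -1.12, close in size to that of irg-7, but with an SE of 0.45, a 95% interval of -2.13 to -0.11 and an adjusted p of 0.246. Without MProPow2 replicate 3 it was -1.79 with an adjusted p of 0.0389, past the threshold.

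irg-7 fell in MProPow2-treated animals. It encodes a large secreted protein that is needed for resistance to P. aeruginosa and for the long life of animals without a germline. It had 497, 600 and 519 CPM in the MProPow2 libraries, against 1262, 1364 and 1095 CPM in the control libraries. The 3 MProPow2 libraries lay close together, and the highest of them was far below the lowest control library. The mean was 538 ± 54.6 CPM in MProPow2-treated animals and 1240 ± 136 CPM in control animals (SD, n = 3 each), from 15552 to 18021 counts per MProPow2 library and 34499 to 51152 per control library. The log2 fold change was -1.20 (SE 0.12, 95% interval -1.48 to -0.93, adjusted p = 0.00149), which ranked 22 of all genes tested by p. It was past the threshold in all 15 alternative settings, between -1.29 and -1.13. The study chose irg-7 by its result in these libraries, so that choice and the call given here rest on the same data. For the chosen genes the paper reported lower expression with both powder batches by qRT-PCR on independent samples, which are not analysed here.

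**Figure D2:**
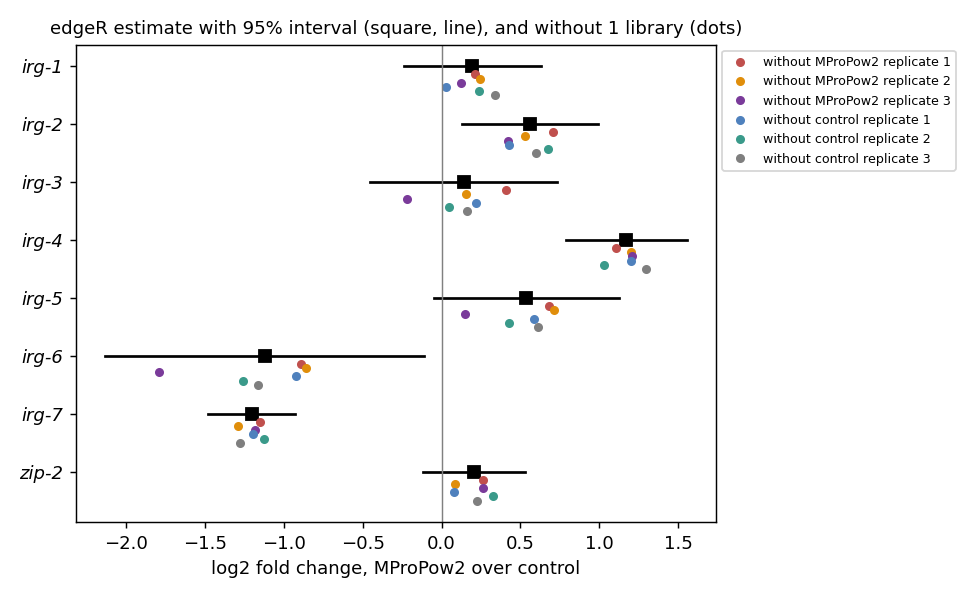
log2 fold change of MProPow2 over control for each of the 8 genes (horizontal axis), with the estimate from all 6 libraries as a black square, its 95% interval as a line, and the estimate after leaving out each library as coloured dots. Only irg-3 has dots on both sides of 0, and every other member keeps its sign. The dots of irg-4 and irg-7 all lie within or near their intervals, and irg-5 and irg-6 move most without MProPow2 replicate 3.

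Non-overlapping ranges of CPM were thus found for 2 members in the higher direction (irg-2 and irg-4) and 2 in the lower direction (irg-6 and irg-7). The ranges of irg-2 and of irg-6 nearly met. irg-6 passed the filter on low counts only through its control libraries (23, 19 and 18 counts, against 6, 5 and 15 in the MProPow2 libraries). Its lower values are therefore no separate support for a fall. Among all genes tested, 11.1% had such ranges with MProPow2 higher and 12.3% with MProPow2 lower. An exact permutation test over the 6 libraries cannot give a two-sided p below 0.1 for any single gene. Of the 8 members, 4 had an unadjusted p under 0.05 in edgeR, irg-6 included, against 2454 of the 14534 genes tested. MProPow2 replicate 3 was above both other MProPow2 libraries by more than 0.5 on the log2 scale for irg-3, irg-5 and irg-6, and 3.01% of all genes tested did the same. It was below both by that margin for 10.3% of all genes tested, against 1.11 to 5.08% for each other library within its own group. The part of that library in the results of irg-3, irg-5 and irg-6 is given by the values without it.

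Levels of different genes can be compared only per length, for which the deposited FPKM values (fragments scaled for gene length and depth) were used. In MProPow2-treated animals zip-2 was highest with 249 ± 30.8 FPKM, followed by irg-7 with 77.8 ± 6.59 FPKM and irg-3 with 24.8 ± 10.6 FPKM, and their ranges did not overlap. In control animals zip-2 had 215 ± 37.1 FPKM and irg-7 178 ± 19.9 FPKM, and these ranges did overlap (SD, n = 3 each). irg-7 therefore lay well below zip-2 in MProPow2-treated animals, and near it in control animals.

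irg-3 in control animals had 22.4 ± 2.76 FPKM. The level of irg-2 was 7.76 ± 1.53 FPKM in MProPow2-treated animals and 5.21 ± 0.92 FPKM in control animals, and that of irg-1 was 5.35 ± 0.49 FPKM in MProPow2-treated animals and 4.63 ± 1.01 FPKM in control animals. irg-4 had 7.64 ± 0.66 FPKM in MProPow2-treated animals and 3.38 ± 0.60 FPKM in control animals, and irg-5 had 6.33 ± 2.66 FPKM in MProPow2-treated animals and 4.33 ± 0.59 FPKM in control animals. Within each group, neighbours in the order of irg-1, irg-2, irg-4 and irg-5 overlapped. The mean of irg-4 was close to that of irg-2 in MProPow2-treated animals and the lowest of these genes in control animals. irg-6 was last in both groups, with 0.167 ± 0.111 FPKM in MProPow2-treated animals and 0.366 ± 0.091 FPKM in control animals.

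**Figure D3:**
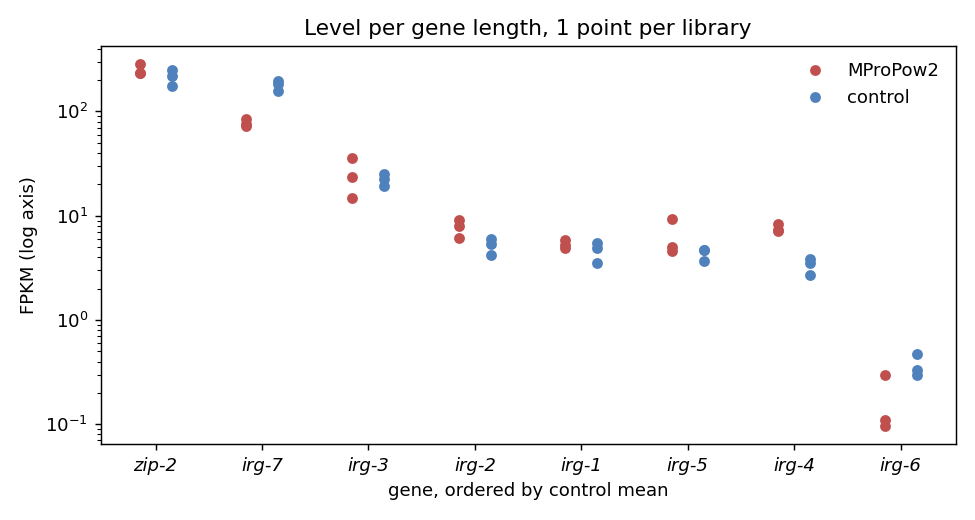
FPKM of the 8 genes (log axis) in each library, with MProPow2 left of control for each gene and genes ordered by their control mean. zip-2 and irg-7 overlap in the control libraries and are apart in the MProPow2 libraries, and irg-6 lies below all other members.

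Since irg-7 and zip-2 took most of the reads, they set the summed count of the 8 genes. The members together held 0.0855 to 0.107% of all counts in the MProPow2 libraries and 0.144 to 0.175% in the control libraries. irg-7 made up 57.7% of these counts in MProPow2-treated animals and 78.5% in control animals, and zip-2 made up 37.3% in MProPow2-treated animals and 19.3% in control animals.

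The genes around these members in the same response were examined by lists. Of 9 effectors known to depend on PMK-1, irg-4 and irg-5 included, 3 rose and 2 fell, against 1.53% of all genes tested called higher and 1.47% called lower. Besides irg-4, catp-3, a cation-transporting ATPase, rose with a log2 fold change of 1.12 (adjusted p = 0.0168), and sysm-1, known as the reporter gene T24B8.5, with 0.80 (adjusted p = 0.0269). C17H12.8 fell with -1.63 (adjusted p = 2.69e-04) and the C-type lectin gene clec-85 with -0.68 (adjusted p = 0.0473). The summed level of the 9 genes was 255, 320 and 353 CPM in the MProPow2 libraries, against 518, 545 and 597 CPM in the control libraries. That sum weighs the most abundant genes most and does not describe the list as a group. Of the 9 log2 fold changes, 5 were above 0 and 4 below. The median log2 fold change was 0.54, which is the value of irg-5, a gene not called and at 0.15 without MProPow2 replicate 3. Of these calls, C17H12.8 was past the threshold in all 6 fits that left out 1 library, catp-3 in 3, sysm-1 in 2 and clec-85 in 1, and without control replicate 2 none of the 9 was called higher. The calls of catp-3, sysm-1 and clec-85 were lost in limma, and that of sysm-1 also with the replicate block. That of clec-85 was also lost with upper-quartile scaling and with at least 10 counts in every library. C17H12.8 was among the genes the study selected from these libraries.

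None of the 8 genes of the p38 cascade itself was called in edgeR, 1 of them had an unadjusted p under 0.05, and 1 was called higher without MProPow2 replicate 3 or without the count filter (0 in DESeq2 and in limma). Their log2 fold changes ran from -0.11 to 0.49 with a median of 0.09. Chosen after their values were seen, pmk-1, the kinase, had a log2 fold change of 0.00 (adjusted p = 0.995) and tir-1, the adaptor at the top of the cascade, had 0.49 (adjusted p = 0.234). PMK-1 acts through phosphorylation, which RNA counts do not measure.

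Of 27 bZIP factor genes, 25 were tested, zip-2 among them, and 1 was called in each direction, beside the same 1.53% and 1.47%. cebp-1, a C/EBP factor, rose with a log2 fold change of 0.67 (adjusted p = 0.0331), and atfs-1, the factor of the mitochondrial unfolded protein response, fell with -0.40 (adjusted p = 0.0309). Both calls were lost in 5 of the 6 fits that left out 1 library and held without MProPow2 replicate 3. They were also lost in limma, and that of atfs-1 with the replicate block. cebp-2, which encodes the partner of ZIP-2 and is named for that role after its values were seen, had a log2 fold change of 0.03. The median of the 25 genes was -0.01, beside 0.21 for zip-2.

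Of 20 other regulators of immune genes, 1 fell (1.47% of all genes tested did), and 16 had log2 fold changes below 0. An unadjusted p under 0.05 in edgeR was found for 8 of them, and for 2454 of the 14534 genes tested. The called gene was pqm-1, a zinc-finger factor of stress responses, with -0.75 (adjusted p = 0.0236), and it was not called without MProPow2 replicate 1, control replicate 2 or control replicate 3. Its call was also lost in limma. DESeq2 and the fits without MProPow2 replicate 2 or replicate 3 each called 2 of the list lower, and edgeR with no filter called 3. Without MProPow2 replicate 3, and with no filter, 1 was called higher. nhr-86, which can drive irg-4 and was chosen after its value was seen, had -0.27 (adjusted p = 0.208).

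The pals family marks the intracellular pathogen response, which is separate from the bacterial response of the irg genes. Of 39 pals genes, 31 were tested and 0 were called in edgeR, although 26 of the 31 log2 fold changes were above 0, their median was 0.49, and 6 had an unadjusted p under 0.05. DESeq2 called 3 of them higher, RLE scaling 1, edgeR with no filter 9, and edgeR without MProPow2 replicate 3 called 16. Over all genes the same settings called 386, 262, 684 and 627 higher, against 223. That library had the lowest summed pals level of its group, with 192, 233 and 143 CPM in the MProPow2 libraries, against 143, 160 and 163 CPM in the control libraries. The library that held the highest irg-3 and irg-5 values thus held the lowest pals sum among the MProPow2 libraries. For 10.3% of all genes tested it lay below both other MProPow2 libraries by more than 0.5 on the log2 scale.

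**Figure D4:**
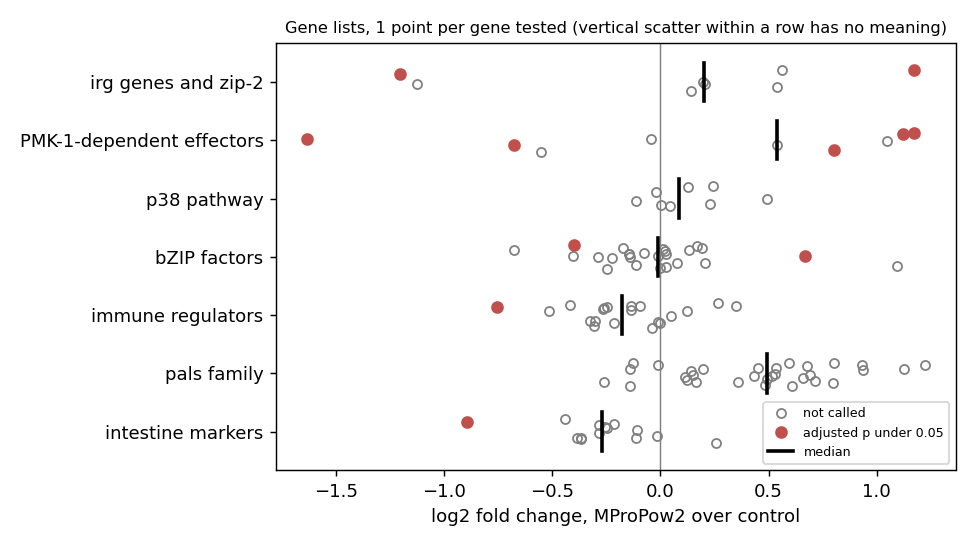
log2 fold change of MProPow2 over control (horizontal axis) for every tested gene of the irg genes with zip-2 and of 6 gene lists, with called genes in red and the median of each list as a black bar. Called genes lie on both sides of 0 among the irg genes and among the PMK-1-dependent effectors, the pals genes lie mostly above 0 without a call, and the intestine markers lie mostly below 0.

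Because reporters of irg genes are seen mostly in the intestine, the markers of that tissue stand beside them. Of 14 intestine markers 1 was called lower, the protease gene asp-1 (log2 fold change -0.89, adjusted p = 0.0242), and 13 of 14 were below 0, with a median of -0.27 and a range of -0.89 to 0.26. Of these markers 8 had an unadjusted p under 0.05, as did 2454 of the 14534 genes tested. Their summed level was 3232 to 4388 CPM in the MProPow2 libraries and 5347 to 5898 CPM in the control libraries, or 1564 to 1909 CPM in the MProPow2 libraries and 2011 to 2074 CPM in the control libraries without asp-1. The fall of irg-7 (-1.20) was beyond every marker, and the rise of irg-4 (1.17) was in the other direction from 13 of them. asp-1 was not called without MProPow2 replicate 1, control replicate 2 or control replicate 3, nor in limma.

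Body wall muscle markers had a median of -0.27, 3 of 6 with an unadjusted p under 0.05 and 2 called lower, lev-11 (tropomyosin, -0.54) and unc-27 (troponin I, -0.50). Of the 6 fits that left out 1 library, lev-11 was called in 2 and unc-27 in 1. Both were lost with the replicate block and in limma. Markers of germline and oocyte, pharynx, neuron and hypodermis had medians between -0.15 and -0.01 with 0 called in edgeR, and 1 neuron marker and 1 hypodermis marker had an unadjusted p under 0.05. The part of tissue make-up in the results of the irg genes was not tested.

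ZK6.11 is named irg-8 in a current annotation but not in the count table, so it was not counted among the members. It had 172, 219 and 131 CPM in the MProPow2 libraries, against 441, 446 and 463 CPM in the control libraries. The groups were far apart, and the log2 fold change was -1.37 (adjusted p = 0.00377), between -1.57 and -1.20 when 1 library was left out. ZK6.11 was past the threshold in each of those fits and in 8 of 9 other settings, and missed it in limma on log2(FPKM + 1) with no filter. It, too, was among the genes that the study selected from these libraries.

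The genes whose pattern over the 6 libraries was most like that of irg-7, by the root mean square difference of centred log2 CPM, were F55G1.15 (0.0877), F13B6.2 (0.0965), T28F3.8 (0.113), cdr-2 (0.117) and Y51H4A.25 (0.118). Their own log2 fold changes ran from -1.27 to -1.06. For irg-4 they were otpl-8 (0.0390), cutl-18 (0.0941), F08F1.9 (0.141), CD4.13 (0.154) and T05F1.8 (0.159), of which all but cutl-18 rested on 5 to 54 counts per library. For zip-2 they were F52E1.9 (0.0457), gadr-6 (0.0472), ZC204.12 (0.0567), nhr-35 (0.0674) and C49G7.7 (0.0691). No other member was among the 5 genes nearest to irg-7, irg-4 or zip-2.

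In the gene order of the annotation, the 3 nearest protein-coding genes on each side of every member gave 48 neighbours, a description added after the values were seen. Of these, 34 were tested, and 1 of the 34 (2.94%) was called lower and 0 higher, against 1.47% of all genes tested called lower. The called gene was K08D8.4, close to irg-6, which fell with a log2 fold change of -0.998 (adjusted p = 0.0314) and was called in 1 of the 6 fits without 1 library. Its call was lost in limma. The genes on either side of irg-7, F28B4.3 and F40F4.7, had -0.04 and 0.21, and neither was called. Beside irg-4, clec-184 had -0.10 without a call, and clec-185 on the other side was not tested.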

How the data were processed

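Poly-A selected RNA of 6 libraries was sequenced, and groups were taken from the sample titles. The authors aligned reads with HISAT2, assigned them to genes with featureCounts, and deposited a table of raw counts and a table of FPKM, in which 0 columns had no sample. For the build, the annotation, the strand setting and the FPKM formula the entry is not given in the sources used here. Coordinates are therefore left out. Symbols come from the table, and 46920 identifiers matched a RefSeq list (WBcel235), used with an Ensembl annotation for names and gene order.

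The test was the quasi-likelihood F test of edgeR 4.0.16 (R 4.3.3) on counts, with filterByExpr (minimum count 10), TMM scaling, no covariates and Benjamini-Hochberg adjustment, threshold 0.05. The script for this test was checked on simulated data. The common biological coefficient of variation was 13.9%. Alternatives were DESeq2 1.42.0, RLE and upper-quartile scaling, other count filters, the replicate block, limma 3.58.1 on log2(FPKM + 1) and log2(FPKM + 0.1) with a mean FPKM of at least 0.1 or no filter, and leaving out each library.

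The members and lists were chosen with earlier results of these data known. Named are all members, the called genes of a list (up to 3 where more than 5) and the 5 genes most like irg-4, irg-7 and zip-2. A list of CUB-domain genes and sequences were not used here.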

Additional observations from a re-analysis of the deposited data

How the results depend on the processing

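The fall of irg-7 kept its direction and side of the threshold in all 15 alternatives and the rise of irg-4 in 12 of 15. edgeR with no filter on counts called 2 of the 8 genes higher (irg-2 and irg-4), whereas unfiltered log2(FPKM + 1) values gave 0 in limma. When 1 library was left out, 0 to 1 members were called higher and 1 to 2 lower, the second being irg-6 without MProPow2 replicate 3. The log2 fold change of irg-3 ran from -0.22 to 0.41 over these fits and was below 0 only without MProPow2 replicate 3, and the cause was not tested. The median of the 8 genes lay between 0.14 and 0.34 in every alternative. irg-6 had no value with at least 10 counts required in every library.

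The sources used here do not say whether libraries of the same number shared more than that number. Their deviations correlated at -0.05, 0.10 and -0.12, and those of libraries of unlike number at -0.2 to 0.19. With 3 libraries per group these values cannot decide the question. With the replicate block, 1 member was called higher and 1 lower, irg-4 (adjusted p = 0.0342) and irg-7 (adjusted p = 0.0108), while the calls over all genes were 90 higher and 102 lower, against 223 and 214 without it. Over all alternatives these counts ran from 12 to 684 higher and from 33 to 542 lower, with 17 to 627 higher and 55 to 417 lower when 1 library was left out, DESeq2 gave 386 higher and 356 lower, and upper-quartile scaling 229 higher and 131 lower. Depth limits irg-6, with 5 to 23 counts per library, more than any other member.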
